A study of Mus musculus with 12 samples.

Results

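Transcripts of 10 enzymes of bile acid synthesis were followed in mouse liver and in skin CX3CR1+ cells after treatment of mice with carbon tetrachloride (CCl4), which is toxic to hepatocytes. The enzymes are Cyp7a1, Hsd3b7, Cyp8b1, Akr1d1, Cyp27a1, Cyp7b1, Amacr, Acox2, Slc27a5 and Baat. They were taken by symbol from a deposited table of 57180 gene IDs, and all 10 were found, each under 1 ID. The series holds 12 libraries in 4 groups of 3: liver of CCl4-treated mice, liver of vehicle-treated mice, dorsal skin CX3CR1+ cells of CCl4-treated mice, and the same cells of vehicle-treated mice. Liver came from C57 mice and was sequenced as bulk RNA. Skin cells came from mice carrying Cx3cr1-creER, a tamoxifen-inducible Cre under the Cx3cr1 promoter, with the Ai9 reporter, and were profiled by smart-seq, which copies whole transcripts from little input. Both treatment groups of a tissue share strain and alleles. The submitters describe biological replicates, and their design text speaks of hepatocytes where the labels say liver. The sources used here give no dose, interval after treatment, sex or age.

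Bile acids are made from cholesterol in hepatocytes by a classic route and an alternative route, which share later steps. In the classic route the sterol ring is hydroxylated and reshaped first, by CYP7A1, HSD3B7, CYP8B1 and AKR1D1. In the alternative route CYP27A1 oxidises the side chain first and CYP7B1 hydroxylates the ring. The side chain is then shortened in peroxisomes, where AMACR and ACOX2 act, and the product is joined to taurine or glycine by SLC27A5 and BAAT. Returning bile acids lower synthesis through the receptor FXR (Nr1h4), the repressor SHP (Nr0b2) and the FGFR4 and beta-Klotho (Klb) pathway. HNF4A and LRH-1 (Nr5a2) are known activators of Cyp7a1 and Cyp8b1.

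RefSeq promoter windows on GRCm38.p6 were at hand for 5 of the 10 genes (Cyp8b1, Cyp27a1, Akr1d1, Hsd3b7 and Acox2, the last with 2 windows). The 250 bases before the annotated start are shown for the gene of these 5 whose transcript fell most in liver and for the one whose transcript fell least. Capitals mark every match to 4 motifs, each searched on both strands. The motif of the HNF4A type is spelled CAAAGTC. The motif of the LRH-1 type is spelled CAAGGNC. The TATA box, which places the start of transcription, is spelled TATAAA. The motif of the C/EBP type is spelled TTNNGCAA. The motifs were chosen after the sequences had been seen.
Cyp8b1, chr9:121916306-121916555, minus strand: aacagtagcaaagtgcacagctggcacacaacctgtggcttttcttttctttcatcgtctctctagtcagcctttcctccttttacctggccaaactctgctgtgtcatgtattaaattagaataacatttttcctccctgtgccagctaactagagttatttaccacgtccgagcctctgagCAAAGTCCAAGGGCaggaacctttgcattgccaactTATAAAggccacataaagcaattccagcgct
Cyp27a1, chr1:74713285-74713534, plus strand: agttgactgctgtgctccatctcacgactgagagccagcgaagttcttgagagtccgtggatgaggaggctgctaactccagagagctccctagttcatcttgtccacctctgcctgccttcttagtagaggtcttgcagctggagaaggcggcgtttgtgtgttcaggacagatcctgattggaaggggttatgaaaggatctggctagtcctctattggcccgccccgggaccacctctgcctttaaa
The Cyp8b1 window held CAAAGTC starting 67 bases before the start and, directly after it and without overlap, CAAGGGC at 60 bases, followed by TATAAA at 31 bases. The Cyp27a1 window held none of the 4 motifs. Among 32851 promoter windows of the same length, 3.84% held the HNF4A-type motif, 15.0% the LRH-1-type motif, 12.4% the TATA box and 9.56% the C/EBP-type motif. Among the other windows, Akr1d1 and 1 of the Acox2 windows held a C/EBP-type match and Hsd3b7 held no match. These letters are matches to short motifs and do not show binding.

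All values are TPM as deposited, which are scaled for transcript length and to the same total in every library and hold no read depth. The total was not shared alike between the liver groups. Genes of the mitochondrial genome, together with 11 nuclear pseudogenes closely resembling them (near copies), held 68.1% to 82.1% of the TPM in CCl4 liver and 25.7% to 28.4% in vehicle liver. The 20 hepatocyte secretory genes used as a yardstick, such as Alb (albumin), had a geometric mean of 738, 751 and 1574 TPM in the CCl4 libraries and 3420, 3694 and 3687 TPM in the vehicle libraries. Non-parenchymal markers moved the other way: the summed TPM of 9 Kupffer cell and macrophage markers was 103 to 285 in CCl4 liver and 22.7 to 59.4 in vehicle liver, with all 9 called higher and none at 0 in every library of a group. Sums were 55.8 to 154 TPM in CCl4 liver and 9.73 to 10.7 TPM in vehicle liver for 5 endothelial markers, all called higher, and 12448 to 29654 TPM in CCl4 liver and 62659 to 69921 TPM in vehicle liver for 5 hepatocyte markers, all called lower. Their part in the results below was not tested. In bulk liver, fewer hepatocytes and less RNA per hepatocyte cannot be told apart.

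All 10 transcripts were lower in CCl4 liver than in vehicle liver in TPM as deposited. Cyp8b1, the sterol 12-alpha-hydroxylase that directs synthesis to cholic acid, had the lowest log2 change. Cyp7a1, the rate-limiting enzyme of the classic route, had the change nearest 0, but not without vehicle replicate 2 (-2.00, against -1.97 for Cyp27a1 and -1.83 for Amacr) or under quantile normalization (-0.71, against -0.66 for Cyp27a1). Nor was Cyp7a1 nearest 0 when scaled to the hepatocyte secretory genes (0.28, against -0.07 for Cyp27a1, -0.08 for Amacr and -0.16 for Hsd3b7). The 10 together held 248, 269 and 541 TPM in the CCl4 libraries and 1696, 1700 and 1746 TPM in the vehicle libraries (exact permutation p = 0.1, two-sided, the smallest possible with 3 against 3). By limma on log2(TPM + 1), 10 of 10 passed a Benjamini-Hochberg adjusted p under 0.05 as lower and 0 as higher, with 0 higher at an unadjusted p under 0.05 too. Over all 10385 genes tested, 51.1% were called lower and 10.3% higher, 61.4% in all. The median log2 change was -2.46 over the 10 enzymes and -0.59 over all genes tested. For 9 of the 10 every CCl4 library lay below every vehicle library, which held for 58.8% of all genes tested.

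**Figure D1:**
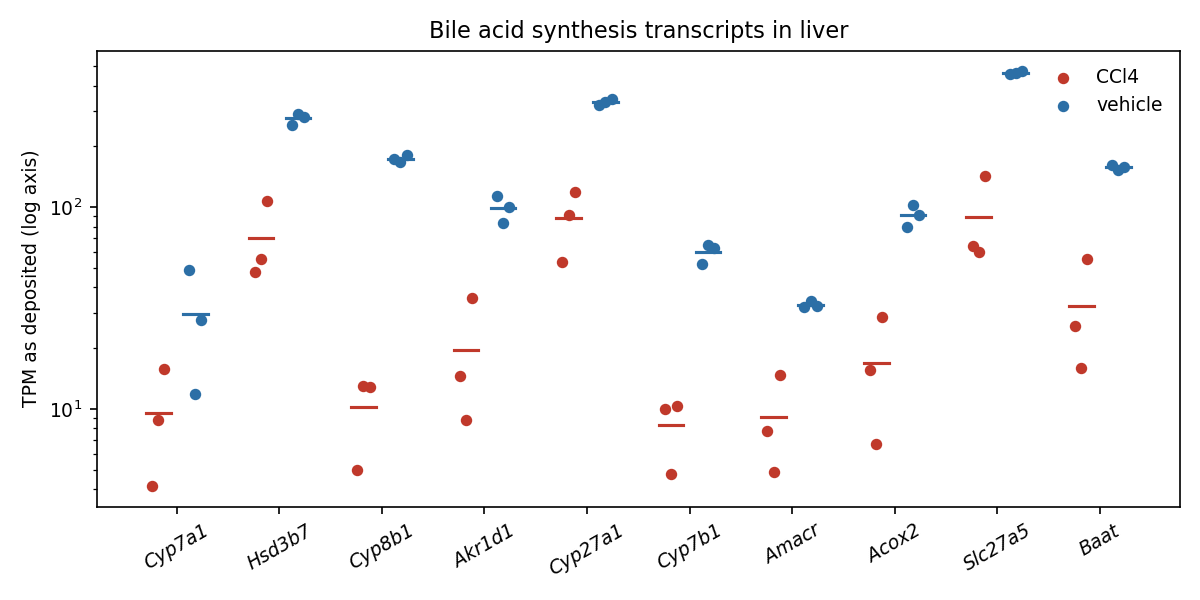
Level of each enzyme transcript in the 6 liver libraries, in TPM on a log axis, with CCl4 in red and vehicle in blue; points are libraries and bars are means of 3. The red points lie below the blue ones for 9 genes, while for Cyp7a1 the highest CCl4 library (15.71 TPM) lies above the lowest vehicle library (11.84 TPM).

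The 2 hydroxylases that begin and shape the classic route behaved unlike each other. Cyp7a1 had 4.15, 8.78 and 15.71 TPM in the CCl4 libraries, against 48.70, 11.84 and 27.53 TPM in the vehicle libraries. The groups overlapped, with vehicle replicate 2 below CCl4 replicate 3. The mean in CCl4 liver was 32.5% of that in vehicle liver, a log2 change of -1.48 ± 0.50 (SE), with a limma adjusted p of 0.0236. Over the 6 single-library omissions the log2 change ranged from -2.00 (without vehicle replicate 2) to -1.02. The call was lost without CCl4 replicate 1 (-1.04, adjusted p = 0.158) and without vehicle replicate 1 (-1.02, adjusted p = 0.0681), and the adjusted p ranged from 0.00243 to 0.158 over these omissions. It was also lost with no filter on low TPM (adjusted p = 0.130) and with robust eBayes (adjusted p = 0.0559). Over all other settings the limma adjusted p ranged from 1.91e-05 to 0.979. The lowest came from a block on replicate numbers, which showed no pairing in liver. Cyp8b1 had 4.99, 12.91 and 12.89 TPM in the CCl4 libraries, against 172.37, 167.08 and 180.87 TPM in the vehicle libraries. The vehicle values had a coefficient of variation of 4.01%, and every CCl4 library was far below them. The mean in CCl4 liver was 5.92% of that in vehicle liver, a log2 change of -4.05 ± 0.36 (limma adjusted p = 2.15e-05). Only 0.193% of the genes tested had a lower log2 change, against 12.6% for Cyp7a1.

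The ring-modifying enzymes of the classic route lay between these. Hsd3b7, the 3-beta-hydroxysteroid oxidoreductase that follows 7-alpha-hydroxylation, had 47.81, 55.10 and 106.76 TPM in the CCl4 libraries and 255.87, 289.22 and 281.04 TPM in the vehicle libraries. It fell by 2.05 ± 0.35 on the log2 scale (limma adjusted p = 0.000756), with no overlap between groups. Akr1d1, the 5-beta-reductase that bends the ring system, had 14.62, 8.78 and 35.33 TPM in the CCl4 libraries and 113.54, 83.63 and 99.95 TPM in the vehicle libraries. It fell by 2.49 ± 0.43 (limma adjusted p = 0.000759). CCl4 replicate 3 was well above the other CCl4 libraries and still below every vehicle library.

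In the alternative route, Cyp27a1, the mitochondrial sterol 27-hydroxylase, had 53.67, 91.54 and 118.85 TPM in the CCl4 libraries, against 320.53, 331.91 and 342.77 TPM in the vehicle libraries. It fell by 1.97 ± 0.34 on the log2 scale (limma adjusted p = 0.000822). Cyp7b1, the oxysterol 7-alpha-hydroxylase, had 9.98, 4.73 and 10.31 TPM in the CCl4 libraries, against 52.39, 65.22 and 62.36 TPM in the vehicle libraries. It fell by 2.77 ± 0.31 (limma adjusted p = 8.98e-05), to 13.9% of the vehicle mean. The groups overlapped for neither gene, and Cyp7b1 was the enzyme with the second largest log2 change.

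The peroxisomal and conjugating enzymes had log2 changes between -2.56 and -1.86, and the groups overlapped for none of them. Amacr, the racemase that sets the side chain for oxidation, had 7.78, 4.86 and 14.73 TPM in the CCl4 libraries and 31.89, 34.09 and 32.45 TPM in the vehicle libraries, a log2 change of -1.86 ± 0.34 (limma adjusted p = 0.00102). Acox2, the branched-chain acyl-CoA oxidase, had 15.49, 6.72 and 28.45 TPM in the CCl4 libraries and 79.77, 102.48 and 91.24 TPM in the vehicle libraries, a log2 change of -2.56 ± 0.42 (limma adjusted p = 0.000644). Both were lowest in CCl4 replicate 2 and highest in CCl4 replicate 3 among the treated livers. Slc27a5, the bile acyl-CoA synthetase and the most abundant of the 10 in vehicle liver, had 64.16, 60.04 and 142.87 TPM in the CCl4 libraries and 458.93, 461.41 and 470.13 TPM in the vehicle libraries. It fell by 2.48 ± 0.37 (limma adjusted p = 0.000357). Baat, the amino acid N-acyltransferase that completes conjugation, had 25.62, 15.87 and 55.50 TPM in the CCl4 libraries and 162.05, 153.37 and 158.14 TPM in the vehicle libraries. It fell by 2.43 ± 0.41 (limma adjusted p = 0.000664).

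Taken over libraries, the levels of neighbouring enzymes were mostly separate in vehicle liver and overlapped in CCl4 liver. In CCl4 liver the order by mean was Slc27a5, Cyp27a1, Hsd3b7, Baat, Akr1d1, Acox2, Cyp8b1, Cyp7a1, Amacr and Cyp7b1, and all 9 neighbouring pairs overlapped. In vehicle liver it was Slc27a5, Cyp27a1, Hsd3b7, Cyp8b1, Baat, Akr1d1, Acox2, Cyp7b1, Amacr and Cyp7a1, and only 2 pairs of neighbours overlapped, Akr1d1 with Acox2 and Amacr with Cyp7a1. By mean, Cyp8b1 thus held the seventh place in CCl4 liver and the fourth place in vehicle liver. The overlap in CCl4 liver was taken over libraries with unlike sums for the 10 enzymes (248, 269 and 541 TPM). It does not show that the order was lost. Within each CCl4 library Slc27a5, Cyp27a1 and Hsd3b7 were the highest, and Baat came next. Among the CCl4 libraries, replicate 3 was highest for 9 of the 10 genes, all but Cyp8b1. It was also the CCl4 library with the smallest mitochondrial share (68.1% with near copies), the highest hepatocyte secretory mean and the lowest macrophage marker sum (103 TPM). Without it the median log2 change of the 10 was -2.89, and all 10 stayed called.

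Shares within a library do not depend on the library total, so the enzymes were also set against their own sum. Cyp8b1 made up 2.01%, 4.79% and 2.38% of the summed TPM of the 10 in the CCl4 libraries, against 10.2%, 9.83% and 10.4% in the vehicle libraries. Cyp27a1 made up 21.6%, 34.0% and 21.95% in the CCl4 libraries, against 18.9%, 19.5% and 19.6% in the vehicle libraries. Hsd3b7 made up 19.3%, 20.5% and 19.7% in the CCl4 libraries, against 15.1%, 17.0% and 16.1% in the vehicle libraries. The groups did not overlap for these genes, with the Cyp8b1 share smaller and the other two larger after CCl4 (exact permutation p = 0.1 each, two-sided, 0.25 when adjusted over the 10 shares). Slc27a5 did not overlap either, at 22.3% to 26.4% in CCl4 liver and 26.9% to 27.1% in vehicle liver, with the same p-values. Cyp7a1 made up 1.67% to 3.26% in CCl4 liver and 0.696% to 2.87% in vehicle liver, with overlap.

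Ratios to Cyp7a1 within each liver library were also lower for Cyp8b1. There were 1.20, 1.47 and 0.820 Cyp8b1 TPM per Cyp7a1 TPM in the CCl4 libraries, against 3.54, 14.1 and 6.57 in the vehicle libraries. The mean log2 ratio was 0.18 ± 0.43 in CCl4 liver and 2.79 ± 1.00 in vehicle liver (SD, n = 3 each, exact permutation p = 0.1, two-sided, 0.3 adjusted over 3 ratios), a difference of -2.61. The ratio of Cyp7b1 to Cyp7a1 differed by -1.33 (log2) between CCl4 and vehicle liver, with overlapping groups (exact permutation p = 0.3, adjusted p = 0.45). The ratio of Cyp27a1 to Cyp7a1 differed by -0.39 (exact permutation p = 0.7, adjusted p = 0.7), and without vehicle replicate 2 by 0.15. In vehicle liver Cyp7a1 varied by 63.0% (coefficient of variation) and Cyp27a1 by 3.35%.

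**Figure D2:**
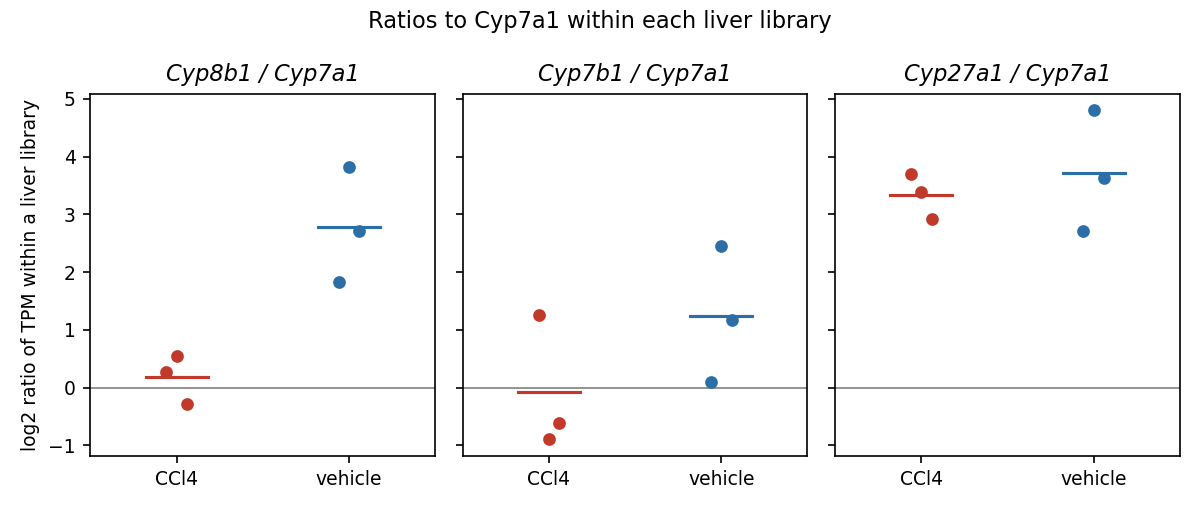
Ratio of Cyp8b1, Cyp7b1 and Cyp27a1 TPM to Cyp7a1 TPM within each liver library, on a log2 scale, with CCl4 in red and vehicle in blue; points are libraries and bars are means of 3. The Cyp8b1 ratio lies between -0.29 and 0.56 in CCl4 liver and between 1.82 and 3.82 in vehicle liver, whereas the groups overlap for the other two.

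How many of the 10 were called depended on the scaling. Median-ratio scaling, quantile normalization and rescaling without mitochondrial genes each called 9 of 10 lower, all but Cyp7a1, while 26.2%, 24.8% and 16.0% of all genes were called lower. Rescaled without mitochondrial genes and near copies, 7 of 10 were called lower, with 4.20% of all genes. The same 7 were called, with 4.78%, when rescaled without mitochondrial genes and the 10 most abundant genes, ranked with mitochondrial genes included. Cyp7a1, Cyp27a1 and Amacr were not called in either, at log2 changes of 0.10, -0.28 and -0.28 without near copies, while the median of all genes stood at 0.85. Scaled to equal hepatocyte secretory genes, 4 of 10 were called lower and 0 higher, with 2.84% of all genes lower, 71.3% higher and the median of all genes at 0.90. These were Cyp8b1 at -2.23 ± 0.31, Cyp7b1 at -0.96 ± 0.28, Slc27a5 at -0.58 ± 0.12 and Baat at -0.56 ± 0.21 (limma adjusted p = 0.00202, 0.0178, 0.00481 and 0.0457). Of the 20 hepatocyte secretory genes themselves, 4 were called lower and 2 higher under this scaling. Their log2 changes ranged from -0.55 (Serpina1c) to 0.45. Slc27a5 and Baat thus lay close to the lowest of the yardstick genes. Over all alternatives other than single-library omissions, the largest adjusted p was 0.00734 for Cyp8b1, 0.0178 for Cyp7b1, 0.0118 for Slc27a5 and 0.0457 for Baat.

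Against the hepatocyte secretory genes the other 6 enzymes were not called in either direction. Their log2 changes were -0.72 (95% interval -1.42 to -0.02) for Acox2, -0.64 (-1.26 to -0.02) for Akr1d1, -0.16 (-0.44 to 0.12) for Hsd3b7, -0.08 (-0.54 to 0.39) for Amacr, -0.07 (-0.56 to 0.41) for Cyp27a1 and 0.28 (-0.88 to 1.44) for Cyp7a1. A scaling that moves all genes alike leaves the distance to the median of all genes nearly as it was. By that distance Cyp8b1 stood at -3.47 in TPM as deposited and at -3.12 under hepatocyte scaling, and Cyp7a1 at -0.89 and -0.62.

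**Figure D3:**
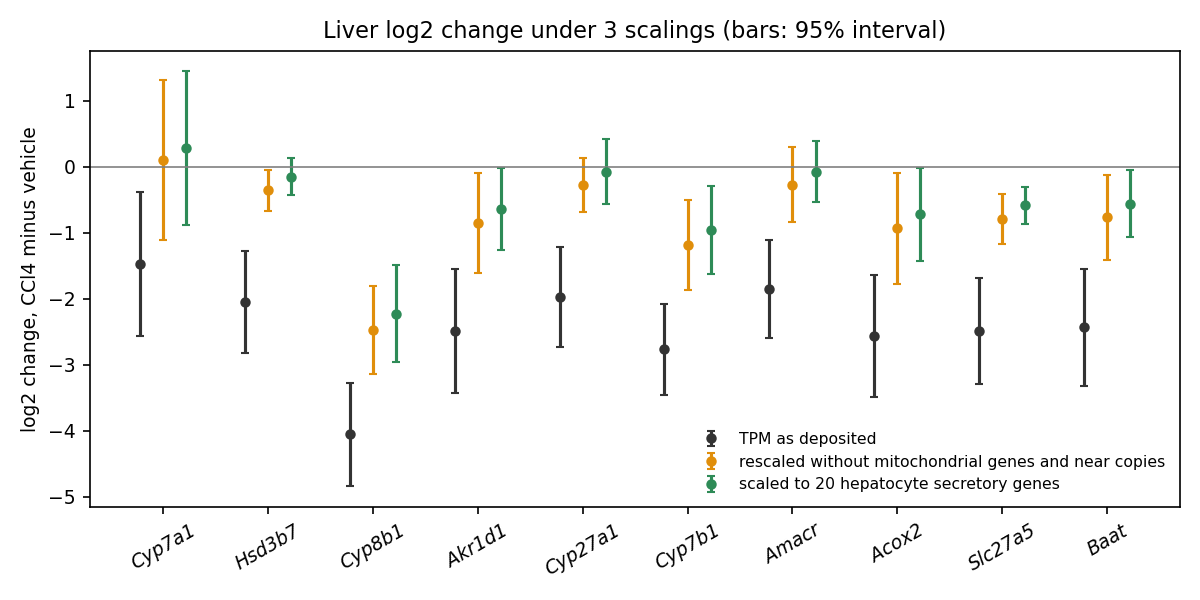
Log2 change of each enzyme transcript in liver, CCl4 minus vehicle, with its 95% interval, in TPM as deposited (black), rescaled without mitochondrial genes and near copies (orange) and scaled to 20 hepatocyte secretory genes (green). Cyp8b1 is the lowest point under each, from -4.05 to -2.23, while Cyp7a1 moves from -1.48 to 0.28.

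Other genes of bile acid synthesis and conjugation were lower as well, from a list of 17 of which 15 could be tested. In TPM as deposited 12 fell, 0 rose and 3 were not called, with a median of -1.74, while 51.1% of all genes fell. Sult2a8, a bile acid sulfotransferase of mouse liver, had 29.58, 12.59 and 47.25 TPM in CCl4 liver and 523.42, 421.12 and 449.57 TPM in vehicle liver, and fell by 4.09 ± 0.42 on the log2 scale (limma adjusted p = 5.52e-05). Slc27a2, a very long chain acyl-CoA synthetase, had a log2 change of -2.63, and the peroxisomal proteins Scp2, Abcd3 and Hsd17b4 had log2 changes of -2.40, -2.28 and -2.11. Fdx1, the ferredoxin that passes electrons to mitochondrial P450 enzymes such as CYP27A1, stood at -1.76, and Cyp2c70, which makes muricholic acids in mice, at -1.64. The 3 not called were named after their values were seen: Acnat2, a peroxisomal acyl-CoA N-acyltransferase, at -0.10, the ferredoxin reductase Fdxr at -0.20 and the oxysterol 7-alpha-hydroxylase Cyp39a1 at -0.74. Scaled to hepatocyte secretory genes, 2 of the 15 were lower, Sult2a8 and Slc27a2, and 5 were higher, while 2.84% of all genes were lower there and 71.3% higher. Cholesterol 25-hydroxylase (Ch25h) and Cyp46a1 missed the filter on low TPM. Ch25h had 1.18, 0.95 and 0.49 TPM in CCl4 liver and was listed at 0, 0 and 0.04 TPM in vehicle liver.

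Most regulators of the pathway were lower too. Of 21 listed genes 18 could be tested, and in TPM as deposited 16 fell, 0 rose and 2 were not called, with a median of -1.23, while 51.1% of all genes fell. Nr0b2, the repressor SHP, had 3.29, 6.24 and 13.87 TPM in CCl4 liver and 35.59, 51.66 and 41.43 TPM in vehicle liver. It fell by 2.49 ± 0.40 (limma adjusted p = 0.000534) and was lower under hepatocyte scaling too, at -0.73 (limma adjusted p = 0.0393, and 0.0252 rescaled without mitochondrial genes and near copies). Hnf4a had 21.55, 15.22 and 50.07 TPM in CCl4 liver and 98.41, 112.39 and 101.62 TPM in vehicle liver, a log2 change of -1.98. Log2 changes were -1.80 for Rxra, the partner of FXR, -1.39 for the xenobiotic receptor Nr1i2 and -1.10 for the repressor Mafg.

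The receptors of the feedback loop were called lower in TPM as deposited, at log2 changes of -1.18 for Nr1h4, -1.33 for Klb, -1.08 for Nr5a2 and -0.87 for Fgfr4, the receptor for the gut hormone FGF15 (limma adjusted p = 0.00960, 0.00378, 0.00446 and 0.0125). Scaled to hepatocyte secretory genes, Nr1h4, Nr5a2 and Fgfr4 were higher in CCl4 liver, by 0.66, 0.61 and 0.74 (limma adjusted p = 0.00922, 0.0153 and 0.00698), as they were without mitochondrial genes and near copies (0.48, 0.46 and 0.63, adjusted p = 0.0348, 0.0359 and 0.00771), and Hnf4a and Klb were not called, at -0.12 and 0.24. All 3 values under hepatocyte scaling lay below the median of all genes there (0.90), so the sign of these receptors depends on the scaling. Under hepatocyte scaling 1 of the 18 regulators was lower and 6 were higher, while 2.84% of all genes were lower and 71.3% higher.

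Genes of cholesterol supply and export were lower in TPM as deposited, 12 of 14 tested (15 listed), with 0 higher and a median of -1.30, while 51.1% of all genes were lower. Log2 changes were -2.58 for the bile acid uptake carrier Slc10a1, -2.37 and -1.69 for the cholesterol exporter subunits Abcg8 and Abcg5, -2.46 for Hmgcs1 (early cholesterol synthesis), -1.59 for the lipoprotein receptor Scarb1 and -1.36 for Sqle (squalene epoxidase). Under hepatocyte scaling 2 of the 14 were lower, Abcg8 at -0.74 and Slc10a1 at -0.68, and 6 were higher, against 2.84% lower and 71.3% higher among all genes. The 20 hepatocyte secretory genes had a median of -1.94 in TPM as deposited and all 20 fell, with log2 changes of -2.46 for Serpina1c (a gene with close paralogs, so its single value is uncertain), -2.41 for Apoa1, -2.30 for Serpinc1, -2.27 for Plg, -2.07 for Apoa2, -2.06 for Apoh and -1.75 for Alb.

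**Figure D4:**
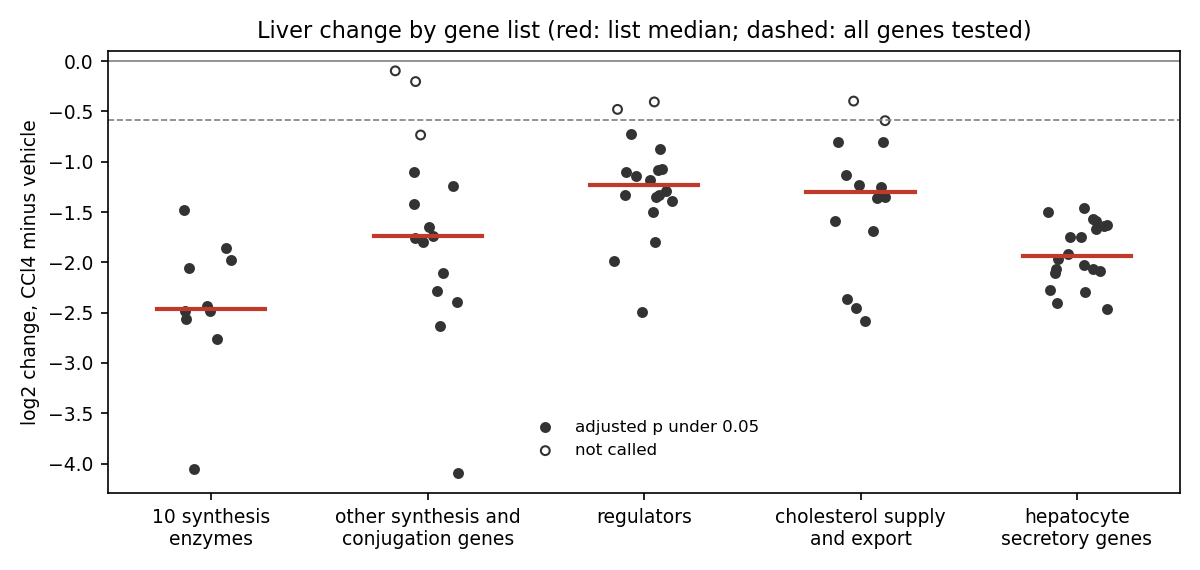
Log2 change in liver, CCl4 minus vehicle, in TPM as deposited, of each tested gene in 5 lists; filled points passed an adjusted p under 0.05, red bars are list medians and the dashed line is the median of all genes tested (-0.59). The median is -2.46 for the 10 enzymes, -1.74 for other synthesis and conjugation genes, -1.23 for regulators, -1.30 for cholesterol supply and export and -1.94 for hepatocyte secretory genes.

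The genes whose liver profiles lay closest to 3 of the hydroxylases were found by the root mean square difference between centred log2(TPM + 1) values over the 6 liver libraries, among 5005 genes. Slc25a25 (0.15), which encodes a mitochondrial carrier, was nearest to Cyp7a1, and Slc25a47 (0.27) was also near it. Slc25a25 had 24.94, 40.22 and 72.81 TPM in CCl4 liver and 179.6, 57.11 and 136.56 TPM in vehicle liver, with the same order of libraries within each group as Cyp7a1. Nearest to Cyp8b1 were 3 major urinary protein genes, Mup2 (0.15), Mup6 (0.35) and Mup3 (0.39). They belong to a family of paralogs, so their single values are uncertain where reads are shared. Mup2 had 4.10, 9.37 and 13.35 TPM in CCl4 liver and 164.43, 157.24 and 162.25 TPM in vehicle liver. Nearest to Cyp7b1 were Sugct (0.18), Tgtp1 (0.22) and Tymp (0.23).

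In skin the CX3CR1+ label was checked against its markers first. Cx3cr1 itself had 5.28, 0 and 0.28 TPM in the CCl4 libraries and 3.91, 0.27 and 0.91 TPM in the vehicle libraries. The summed TPM of 9 macrophage markers was 1556, 2763 and 99.5 in the CCl4 libraries and 1506, 5919 and 9501 in the vehicle libraries, so CCl4 replicate 3 stood apart. Keratinocyte markers summed to 352 to 1864 TPM in the CCl4 libraries and 827 to 1948 TPM in the vehicle libraries, and T cell markers to 552 to 2027 TPM with CCl4 and 500 to 3479 TPM with vehicle, so transcripts of other cell types were present. The libraries numbered 1 listed more genes above 0 (28357 with CCl4, 28870 with vehicle) than the other 4.

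Skin CX3CR1+ cells held few transcripts of the liver-typical steps. Cyp7a1, Cyp8b1, Slc27a5, Baat and Akr1d1 were at 0.86 TPM or less in all 6 skin libraries and could not be tested. Each was listed at 0 in at least 1 library of both groups. The other 5 enzymes were detected in all 6 libraries. Cyp27a1, which macrophages also express, had 8.82, 8.72 and 0.68 TPM in the CCl4 libraries and 8.85, 45.48 and 23.81 TPM in the vehicle libraries. The groups nearly met, at 8.82 TPM with CCl4 and 8.85 TPM with vehicle. The log2 change was -2.05 ± 0.92, with a limma adjusted p of 1.00. It was -1.20 without CCl4 replicate 3, the library with the fewest macrophage transcripts, and the part of that difference in the result was not tested.

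Hsd3b7 overlapped Cyp27a1 in level in skin, with 7.87, 37.50 and 9.99 TPM in the CCl4 libraries and 12.10, 32.71 and 19.28 TPM in the vehicle libraries, and the groups overlapped. Its log2 change was -0.42 (95% interval -2.14 to 1.30). Amacr had 2.89 to 3.24 TPM in the CCl4 libraries and 2.08 to 7.13 TPM in the vehicle libraries. Acox2 had 0.70 to 4.19 TPM with CCl4 and 0.27 to 4.80 TPM with vehicle, and Cyp7b1 had 0.52 to 4.52 TPM with CCl4 and 0.55 to 3.41 TPM with vehicle. The groups overlapped for all 3, with log2 changes of -0.38, 0.35 and 0.13. Limma called 0 of the 5 tested enzymes in skin and 0 also at an unadjusted p under 0.05, with 0% of 13767 genes called and 288 at an unadjusted p under 0.05.

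**Figure D5:**
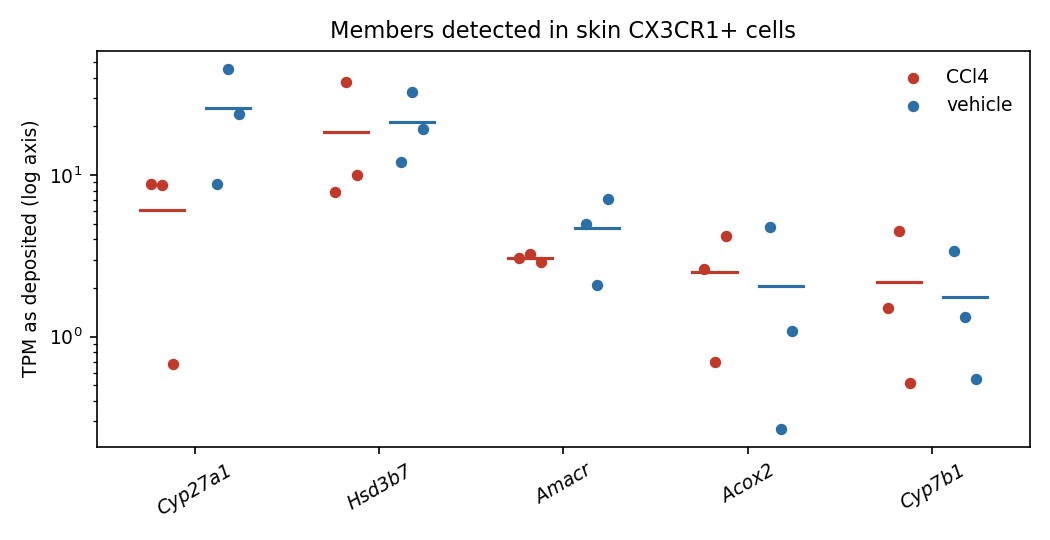
Level of the 5 enzyme transcripts detected in all 6 skin CX3CR1+ libraries, in TPM on a log axis, with CCl4 in red and vehicle in blue; points are libraries and bars are means of 3. For Cyp27a1 the groups nearly meet, at 8.82 TPM with CCl4 and 8.85 TPM with vehicle, and the CCl4 library at 0.68 TPM lies far below the others.

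The effect of CCl4 in liver was compared with that in skin for the 5 enzymes that passed the filter in both tissues. In this comparison tissue, assay, strain and alleles cannot be told apart. The fit also took the same spread for both tissues, though the SE of Cyp27a1 was 0.34 in liver and 0.92 in skin. Limma's test of the difference called 0 of the 5, with 0.216% of 9255 genes called. At an unadjusted p under 0.05 there were 1872 of the 9255 genes and 3 of the 5 enzymes, Cyp7b1 (-2.90, adjusted p = 0.0932), Acox2 (-2.91, adjusted p = 0.121) and Amacr (-1.48, adjusted p = 0.226). For Hsd3b7 the difference was -1.63 (95% interval -3.33 to 0.06) and for Cyp27a1 0.07 (-2.03 to 2.18). The median difference over all genes tested was -0.54. Rescaled without mitochondrial genes and near copies, the differences were -1.32 for Cyp7b1, -1.28 for Acox2, 0.12 for Amacr, 0.07 for Hsd3b7 and 1.78 for Cyp27a1.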

How the data were processed

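The authors deposited 1 table of TPM, scaled for transcript length and to the same total per library, for 57180 genes and 12 libraries. Per the submitters' processing notes, fastp, HISAT2, StringTie and RSEM were used with GRCm39, with neither versions nor roles given. TPM hold no depth, so no counting interval is given, and a 0 can be a failed estimate. Of the IDs, 51884 had a symbol, and no 2 columns were identical. The log2 of TPM plus 1 was modelled in limma 3.58.1 under R 4.3.3 (lmFit, eBayes with trend, two-sided), liver and skin separately. Genes had to reach a TPM of 1 in 3 or more of the 6 libraries of the tissue. The tissue difference took genes that passed in both. P-values had Benjamini-Hochberg adjustment over all genes tested and a threshold of 0.05. Changes are CCl4 minus vehicle and understate those of low genes. Near copies of mitochondrial genes are pseudogenes with at least 95% identity over at least 80% of their length. Single values were compared by exact permutation tests. The fits were tested on simulated data in which few genes changed and the hepatocyte secretory genes did not. The liver data differ in this, so that test does not cover them fully. The enzymes and lists were chosen with earlier results of these data known. Genes named beyond the 10 enzymes are up to 6 per list with the lowest liver p, 8 genes always named, and the 3 nearest profiles. Some genes that this rule names are not reported here. Alternatives were other pseudocounts, filters, scalings, a replicate block, a joint fit, robust eBayes and leaving out each library.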

Additional observations from a re-analysis of the deposited data

How the results depend on the processing

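Of the 10 enzymes, 7 to 10 were called lower in liver under 12 of 13 settings and 4 under hepatocyte scaling, and 9 to 10 when single libraries were left out, with 0 called higher throughout. Their median was -1.20 under quantile normalization, -0.78 and -0.87 without mitochondrial genes and near copies or with the top 10 genes left out, and -0.57 under hepatocyte scaling, and it ranged from -2.89 to -2.05 without single libraries. Cyp7a1 turned to 0.10, 0.018 and 0.28 under the last 3 of these scalings. All genes called in liver numbered 6377, against 4084 with a filter at a TPM of 5 and 3831 without mitochondrial genes. They numbered 1736 in 1 fit over all 12 libraries and 4874 to 7607 without single libraries. In that joint fit Cyp7a1 and Cyp27a1 were not called (limma adjusted p = 0.0675 and 0.0685). Over settings their limma adjusted p ranged from 1.91e-05 to 0.979 and from 7.52e-06 to 0.753, with the lowest under the replicate block. In skin 0 genes were called, 1 in the joint fit. The changes of Cyp7b1 and Acox2 in skin turned sign without single libraries (-0.37 and -0.21 for Cyp7b1, -0.0040 and -0.13 for Acox2, up to 0.56 and 0.96). The tissue difference called 1 enzyme without a filter (Cyp8b1, adjusted p = 0.0141, a gene at 0 to 0.31 TPM in all skin libraries, so that the difference of -3.95 restates its liver change) and 1 with the replicate block (Cyp7b1, adjusted p = 0.0472, range over settings to 0.291). That of Cyp27a1 turned to -0.51 with a pseudocount of 5 and to -0.18, -0.77 and -0.45 without single libraries (up to 0.67). Those of Hsd3b7 and Amacr turned to 0.071 and 0.12 without mitochondrial genes and near copies, and Amacr to 0.021 without the top genes. The ratio of Cyp8b1 to Cyp7a1 ranged from -3.09 to -2.09 without single libraries, that of Cyp7b1 from -2.00 to -0.72 and that of Cyp27a1 from -0.89 to 0.15. Causes of these shifts were not tested. The block called 10 enzymes lower in liver and 6493 genes. Replicate numbers, also those of the block, are the numbers in the sample titles. The deposited library names number some libraries otherwise. Liver libraries with the same replicate number correlated at -0.04, 0.08 and 0.07 in their deviations from group means. These numbers thus showed no pairing of the liver samples. In skin, libraries with the same replicate number correlated at 0.59, 0.09 and 0.35, and those with unlike numbers at -0.51 to 0.16. Among the latter, CCl4 replicate 3 and vehicle replicate 2, which share a number in the library names, correlated at -0.18. Whether the numbers pair the skin samples was not tested.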
